A study of Saccharomyces cerevisiae with 40 samples.

Results

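The libraries labelled Phe, made from cultures of the budding yeast Saccharomyces cerevisiae given phenylalanine, were set against the libraries labelled Ctrl. The treatment label chose the members, 4 libraries of each kind, 8 of the 40 libraries of the series. Every gene of the table was described, and 6103 of its 6462 genes had a mean of at least 5 normalized reads over the 40 libraries and were tested. The series overfed yeast with single metabolites, and its RNA samples cover 9 amino acids, Phe, Ala, Thr, Ile, Cys, Gly, Trp, Val and Met, beside Ctrl, with 4 libraries each. The labels name the amino acid and a batch letter, A to D, and the libraries are called Phe A to Phe D and Ctrl A to Ctrl D. Strain, genotype, mating type, medium, dose, time and what the Ctrl cultures received are not in the labels, and neither is whether the 4 letters were separate cultures, so the spread between them may be technical in part.

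Yeast can take its nitrogen from phenylalanine by the Ehrlich pathway: a transaminase moves the amino group away, a decarboxylase turns the resulting phenylpyruvate into an aldehyde, and the aldehyde is reduced to phenylethanol, the rose-scented fusel alcohol, or oxidised to an acid. The zinc cluster activator Aro80 senses aromatic amino acids and switches on ARO9, the inducible transaminase, and ARO10, the decarboxylase. Phenylalanine also inhibits Aro3, an entry enzyme of the shikimate pathway that makes the aromatic amino acids.

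Phe C stood apart from the other Phe libraries, so the counts of calls and the leading genes are given with and without it. Its mean log2 level over 80 genes of the general stress response, the targets of the Msn2 and Msn4 activators, was 8.98, against 7.45, 7.02 and 7.31 in Phe A, B and D and 7.56, 7.43, 7.61 and 7.56 in Ctrl A to D. In Phe C 61 of these 80 genes lay more than 1 log2 unit above the mean of the other 3 Phe libraries, and none lay as far below. Over all 6103 genes tested, 248 lay as far above and 91 as far below. DDR2, a stress-induced gene of unknown function, had 16.9, 9.96, 426 and 18.8 normalized reads in Phe A to D, HXK1, hexokinase isoenzyme 1, had 377, 153, 3482 and 282, and TSL1, a subunit of trehalose synthase, had 192, 178, 2048 and 248. HXK1 values were not whole reads in over 50% of libraries, so its level may hold reads shared with a similar gene.

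The mean over 33 heat shock chaperone genes was 10.73 in Phe C and 10.04, 9.79 and 9.95 in Phe A, B and D, while the 4 Ctrl libraries lay between 10.21 and 10.28. For 117 ribosome biogenesis genes the order turned, with 10.44 in Phe C against 11.08, 11.21 and 11.09. High stress lists were not particular to Phe C: over the libraries of the other 8 amino acids that carry the letter C, the stress list ranged from 7.12 in Cys C to 9.34 in Gly C. The C libraries of Phe and Ctrl were also the deepest, with an estimated 16373653 and 16698550 reads against 5905334 to 11815129 in the other 6. The part that the letter, depth or culture had in the Phe C pattern was not tested.

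**Figure D1:**
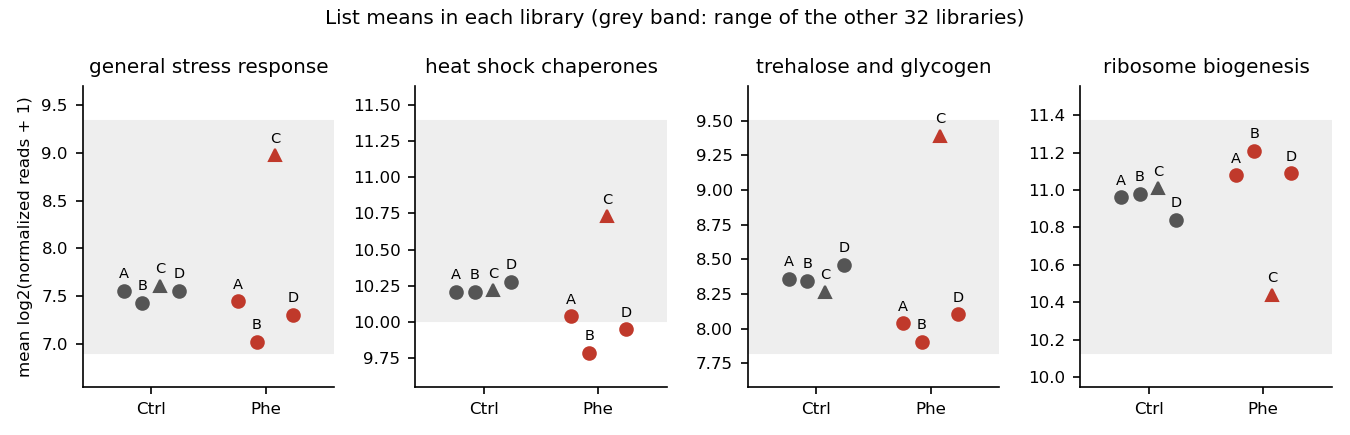
Mean log2(normalized reads + 1) of 4 gene lists (vertical axis) in each Ctrl and Phe library (points, lettered by batch, with a triangle for C); the grey band is the range of the other 32 libraries. Phe C is at 8.98 in the stress panel, above the 7 other points, and Phe A, B and D are under every Ctrl library in the heat shock and trehalose panels.

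Phenylalanine changed 342 genes (limma, adjusted p under 0.05), 5.6% of the genes tested. Higher in Phe were 226 genes, 3.7%, and lower were 116, 1.9%. Changes of at least 2-fold were seen in 1.57% of genes: higher were 83 genes, or 1.36%, and lower were 13, or 0.213%. Without Phe C the count was 335, 5.49%, with 199 higher (3.26%) and 136 lower (2.23%). The list counts against Ctrl given below are to be read beside these shares of all genes. The 2 sets shared 269 genes in the same direction, 78.7% of the calls with all libraries and 80.3% of those without Phe C. Of the 66 genes called only without Phe C, 53 were lower in Phe. Of the genes given here as called with all libraries, ARO4, AQY2, LYS2, ARG3 and CPA1 lost the call without Phe C. The median log2 difference over all genes tested was -0.01 in both. In 352 genes, 5.77%, all 4 Phe libraries lay above all 4 Ctrl libraries, and in 230, 3.77%, all lay below.

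**Figure D2:**
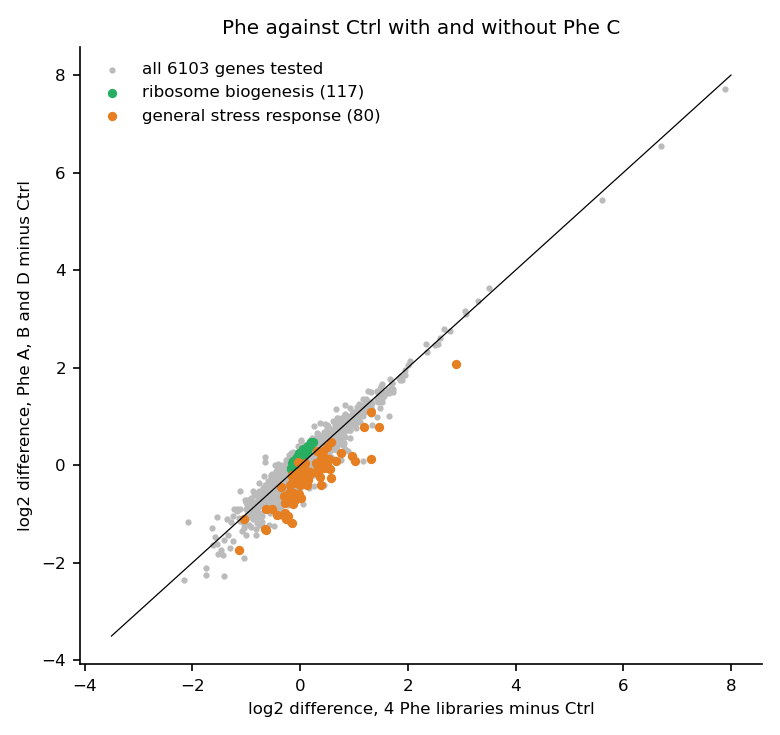
Log2 difference between Phe and Ctrl for each of 6103 genes with all 4 Phe libraries (horizontal axis) and without Phe C (vertical axis); orange marks 80 general stress genes, green 117 ribosome biogenesis genes, and the line marks equal values. ARO9, ARO10 and MET28 at the upper right stay near the line, while most stress genes lie under it and the ribosome biogenesis genes mostly over it.

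The strongest response was that of the Aro80 genes. ARO9, the inducible aromatic aminotransferase, had 44.5, 44.6, 31.5 and 62.5 normalized reads in Ctrl A to D and 10174, 8265, 15520 and 10193 in Phe A to D. ARO10, phenylpyruvate decarboxylase, had 132, 111, 147 and 119.6 in Ctrl and 13971, 10268, 18435 and 11965 in Phe. The groups were far apart in both genes, and Phe C was the highest Phe library in each. ARO9 rose 236-fold, a log2 difference of 7.88 ± 0.31 (SE), and ARO10 104-fold, or 6.71 ± 0.21 (limma, adjusted p = 8.34e-21 and 1.04e-23). Without Phe C the log2 differences were 7.71 ± 0.33 and 6.55 ± 0.22 (adjusted p = 2.24e-19 and 1.78e-22). Within the letters A to D the ARO9 differences were 7.80, 7.50, 8.90 and 7.33, and those of ARO10 were 6.71, 6.52, 6.96 and 6.63.

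ESBP6, a gene of the monocarboxylate permease family that also responds to Aro80, had 653, 545, 534 and 578 reads in Ctrl and 2049.9, 2029, 2701 and 2176 in Phe. The groups did not overlap, and the rise was 3.86-fold, 1.95 ± 0.10 on the log2 scale (limma, adjusted p = 1.52e-16), or 1.85 ± 0.11 without Phe C. ARO80, the activator itself, had 282, 256, 227 and 292 reads in Ctrl and 258, 326, 684 and 353 in Phe. Phe A lay within the Ctrl range and Phe C far above it, and the log2 difference, 0.52 ± 0.19, did not pass the test (adjusted p = 0.109; 0.23 ± 0.16 and adjusted p = 0.469 without Phe C). Without Phe A instead, ARO80 passed, at 0.70 (adjusted p = 0.0179). ARO8, the constitutive aromatic aminotransferase, had 8612, 8586, 9322 and 9958 reads in Ctrl and 6852, 8087, 7581 and 7943 in Phe, and its difference of -0.26 ± 0.12 did not pass (adjusted p = 0.265).

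The stretches upstream of the 3 genes that rose are shown because they hold the letters Aro80 is known to bind, CCG, then 7 bases of any kind, then CCG, searched on both strands in the 500 bases before each start codon of the RefSeq R64 assembly. These sequences are tied to the genes by name, because no source used here gives the build behind the table. Capitals mark the fixed letters of each match, whose repeats may overlap. ARO9 is shown at chrVIII:375473-375582 (plus strand), ARO10 at chrIV:1233871-1233980 (plus strand) and ESBP6 at chrXIV:392483-392537 (minus strand).
ARO9: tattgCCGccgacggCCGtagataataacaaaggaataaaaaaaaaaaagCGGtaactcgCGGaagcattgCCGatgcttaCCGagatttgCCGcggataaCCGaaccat
ARO10: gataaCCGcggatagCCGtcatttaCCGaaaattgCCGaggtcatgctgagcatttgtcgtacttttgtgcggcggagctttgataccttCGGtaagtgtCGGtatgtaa
ESBP6: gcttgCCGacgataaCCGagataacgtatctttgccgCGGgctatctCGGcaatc

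ARO9 held 5 matches, ARO10 4 and ESBP6 2, while ARO80 and ADH6 held 1 each, and the other 15 promoters of the 20 Ehrlich pathway genes held none. Of 6000 promoters of this length 320, or 5.33%, held at least 1 match. Among the 307 tested genes with a match 31 rose, 10.1% against 3.7% of all genes, 9 fell, and their median log2 difference was 0.00. Only 11 tested genes held 3 or more matches, and 5 of them rose: ARO9, SPL2, ARO10, SDH6 and MDH2. The first 4 are 2 divergent pairs whose windows read the same bases. The others, YBL029C-A, MRPL35, SOH1, YGR050C, ASK1 and AQR1, did not pass. A match is a description of the letters and shows no binding.

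Genes on both sides of ARO9 and on 1 side of ARO10 changed as well. YRA1, on the other side of ARO10, and SPC98 and NAF1, beside ESBP6, are not described here. SPL2, which starts divergently from ARO9 and encodes a phosphate-starvation regulator of low-affinity phosphate uptake, had 22.3, 21.8, 37.5 and 28.5 reads in Ctrl and 353, 360.3, 246 and 318 in Phe. SDH6, divergent from ARO10 and coding for an assembly factor of succinate dehydrogenase, had 22.3, 17.9, 16.4 and 17.6 in Ctrl and 141, 106, 115 and 107 in Phe. Both rose with no overlap of the groups, SPL2 by 3.51 ± 0.38 and SDH6 by 2.60 ± 0.28 on the log2 scale (limma, adjusted p = 1.43e-08 and 1.43e-08; 3.63 ± 0.41 and 2.60 ± 0.31 without Phe C). YHR138C, whose product resembles the proteinase B inhibitor Pbi2, converges on ARO9 from the other side and fell from 81.6, 73.4, 145 and 79 reads in Ctrl to 28.7, 16.9, 56.7 and 17.6 in Phe. Its highest Phe library was Phe C, still under every Ctrl library, and the log2 difference was -1.75 ± 0.30 (adjusted p = 9.24e-05), or -2.10 ± 0.28 without Phe C. The libraries kept strand, but no source used here says whether counting used it, and reads of these close pairs may have been counted for either gene.

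**Figure D3:**
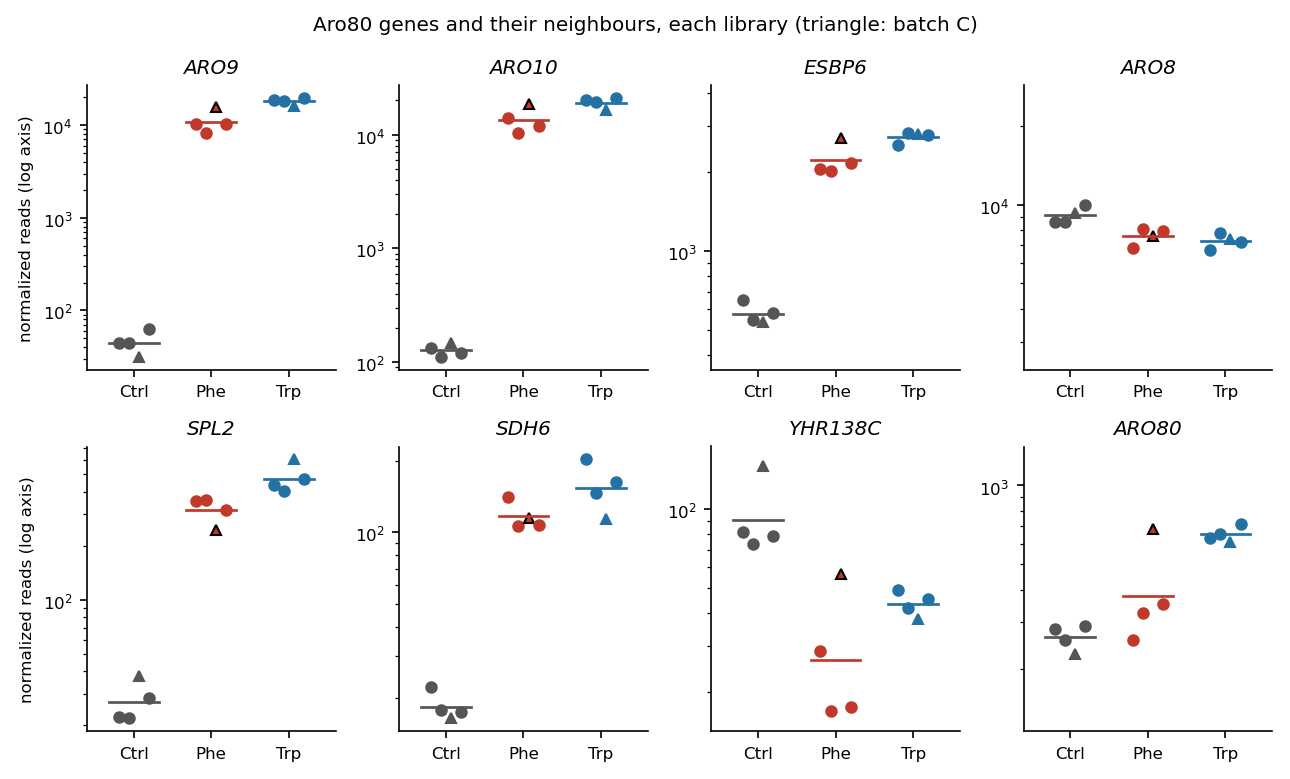
Normalized reads per library (vertical log axis) of 8 genes in the Ctrl, Phe and Trp libraries; triangles are batch C, Phe C has a black edge, and bars are geometric means. Phe and Trp libraries lie far above Ctrl for ARO9, ARO10, SPL2 and SDH6, under Ctrl for YHR138C, and mix with the Ctrl level for ARO80 only in Phe A.

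Of the 20 genes of the Ehrlich list 5 rose and 2 fell, with a median log2 difference of 0.14 (0.20 without Phe C, where the counts were the same). The 2 other rises were the branched-chain aminotransferases. BAT2, the cytosolic form, had 1469, 1517, 1375 and 1493 reads in Ctrl and 3002, 2899.7, 3385 and 2565 in Phe, a difference of 1.01 ± 0.13 (adjusted p = 6.28e-07). BAT1, the mitochondrial form, went up by 0.61 ± 0.17 (limma, adjusted p = 0.0229) and by 0.67 ± 0.18 without Phe C, but its call ended when Phe B, Phe D, Ctrl A, Ctrl B or Ctrl C was left out.

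On the reductase side of the pathway nothing rose in the fit over all groups. SFA1, an alcohol dehydrogenase that also handles formaldehyde, was lower, at -0.31 ± 0.08 (limma, adjusted p = 0.0206), with 1492, 1605, 1569 and 1678 reads in Ctrl and 1268, 1215, 1470.1 and 1192 in Phe. Phe C, the highest Phe library, stayed under Ctrl A, the lowest Ctrl library, but the call ended without Phe A, Phe B, Phe D, Ctrl B or Ctrl D. GRE2, a reductase of methylglyoxal and branched aldehydes, was lower, at -0.80 ± 0.15 (adjusted p = 0.000429; -0.93 ± 0.16 without Phe C), but its values were not whole reads in over 50% of libraries and may hold shared reads. The pyruvate decarboxylases PDC1, PDC5 and PDC6 had log2 differences of -0.40, 0.10 and 1.06, and none passed. PDC1 passed as lower when libraries were scaled to equal totals (limma, adjusted p = 0.0424). It also passed with the letter as a replicate block and Phe C left out (adjusted p = 0.0335). Differences of ADH1 to ADH7 lay between -0.07 in ADH3 and 0.50 in ADH5, and YPR1, an aldehyde reductase, had -0.11. None of these 8 passed with all Phe libraries in the fit over all groups. ADH5 passed as higher in the fit that held only Phe and Ctrl (limma, adjusted p = 0.025).

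Genes that make the aromatic amino acids moved little. None of 12 rose and 2 fell with all libraries, 1 without Phe C, and the median was -0.10 (-0.15 without Phe C). ARO4, the entry enzyme that tyrosine inhibits, had 10798, 11196, 11720 and 11777 reads in Ctrl and 8560.4, 9191, 7092 and 8528 in Phe, with no overlap; its -0.45 ± 0.11 passed (limma, adjusted p = 0.00972), and without Phe C its -0.38 ± 0.12 did not (adjusted p = 0.0568). TRP2, a subunit of anthranilate synthase, fell, at -0.30 ± 0.08 (adjusted p = 0.0114) and at -0.29 ± 0.08 without Phe C (adjusted p = 0.0319), but not without Phe D or Ctrl B. ARO3, the entry enzyme that phenylalanine inhibits, had 4960, 4944, 3718 and 4232 reads in Ctrl and 4009.8, 4635, 3063 and 3322 in Phe, overlapping groups and a difference of -0.26 ± 0.14 (adjusted p = 0.39). ARO1, the pentafunctional shikimate enzyme, and ARO2, chorismate synthase, had -0.36 ± 0.14 and -0.37 ± 0.12 (adjusted p = 0.155 and 0.08); with the letter as a replicate block ARO2 passed as well (adjusted p = 0.0266). ARO7, chorismate mutase, PHA2, prephenate dehydratase, and TYR1, prephenate dehydrogenase, the branch to phenylalanine and tyrosine, had -0.00, 0.16 and -0.03, and TRP1, TRP3, TRP4 and TRP5 lay between -0.10 and 0.15, TRP1 with values that may hold shared reads. None of these 7 passed.

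Among 21 amino acid permease genes 3 rose and 2 fell, also without Phe C, and the median was 0.26 (0.18 without Phe C). With the letter as a replicate block 5 rose and 3 fell. DIP5, the glutamate and aspartate permease, had 684, 962, 1121 and 1244 reads in Ctrl and 3055, 2583, 4490.3 and 3133 in Phe. GAP1, the general amino acid permease, had 1914, 1663, 2232 and 2182 and 3465, 3009, 5200 and 3384. Every Phe library exceeded every Ctrl library in both, the differences being 1.73 ± 0.29 and 0.89 ± 0.20 (limma, adjusted p = 8.58e-05 and 0.00411), or 1.57 ± 0.31 and 0.72 ± 0.21 without Phe C. SAM3, the S-adenosylmethionine permease, rose by 0.51 ± 0.11 (adjusted p = 0.00292).

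PTR2, the importer of di- and tripeptides, fell from 864, 677, 710.3 and 857 reads in Ctrl to 261, 225, 366 and 395 in Phe. All Phe libraries were under all Ctrl libraries, at -1.35 ± 0.15 on the log2 scale (limma, adjusted p = 3.89e-08), or -1.44 ± 0.16 without Phe C. MUP3, a low-affinity methionine permease, was lower, at -0.83 ± 0.23 (adjusted p = 0.0204), a call that ended without Phe D, Ctrl B, Ctrl C or Ctrl D. TAT1 and TAT2, which are among the permeases that carry aromatic amino acids, did not pass. TAT1 had 4507, 4531, 4861 and 4387 reads in Ctrl and 4168, 4520.1, 3564 and 5289 in Phe, and TAT2 had 2008, 2145, 2085 and 2533 and 1577, 1696, 2231 and 2193. Their ranges overlapped, with differences of -0.07 ± 0.12 and -0.20 ± 0.14 (adjusted p = 0.88 and 0.571). BAP2, a branched-chain permease, reached 0.52 ± 0.17 (adjusted p = 0.0757; 0.0437 with the block).

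Branched-chain amino acid synthesis rose in 7 of 12 genes and fell in 1, with and without Phe C, and the median was 0.51 (0.50 without Phe C). Leu3, a zinc cluster activator that needs the leucine precursor isopropylmalate, is known to control many of them. LEU1, isopropylmalate isomerase, had 11555, 12581, 10377 and 11704 reads in Ctrl and 46490, 54420, 41930 and 44161 in Phe. OAC1, the mitochondrial carrier that also exports isopropylmalate, had 1854, 1952, 1412 and 2075 and 5830.3, 6450.1, 4711 and 6098. The groups were wide apart in both; LEU1 rose 4.04-fold, 2.01 ± 0.14 on the log2 scale, and OAC1 3.18-fold, 1.67 ± 0.14 (limma, adjusted p = 3.03e-13 and 2.53e-11), or 2.06 ± 0.15 and 1.76 ± 0.14 without Phe C. ILV2, the catalytic subunit of acetolactate synthase, had 8596, 8857, 7539 and 8923 reads in Ctrl and 12856, 15840, 14106 and 13361 in Phe, a rise of 0.73 ± 0.09 (adjusted p = 6.28e-07). ILV6, the regulatory subunit of the same enzyme, went the other way, from 10300, 11319, 11583 and 12690 to 7489, 8083, 7499 and 8007, a difference of -0.56 ± 0.12 (adjusted p = 0.00218).

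ILV3, the dehydratase, and ILV5, the reductoisomerase, rose by 0.49 ± 0.13 and 0.38 ± 0.11 (limma, adjusted p = 0.0165 and 0.0379). Both calls ended without Phe B, and that of ILV5 also without Phe D, Ctrl A, Ctrl B or Ctrl C. LEU4, the main isopropylmalate synthase, had a difference of 0.53 ± 0.18 that missed the threshold (adjusted p = 0.0779), and passed with the replicate block (adjusted p = 0.0347) and without Phe A (adjusted p = 0.0494). LEU3 itself had 641, 727, 627 and 641 reads in Ctrl and 773, 835, 570.2 and 706 in Phe, and its 0.12 ± 0.09 did not pass, nor did LEU9, the minor synthase, at -0.15, or ILV1, threonine deaminase, at -0.12. Averaged, the 8 amino acids other than Phe gave a second reference, against which 8.65% of all genes differed, 3.98% higher in Phe and 4.67% lower; 9 of the 12 were higher in Phe and 1 was lower. LEU1 stood 2.21 ± 0.10 above that mean on the log2 scale, and its Phe level of 46750 ± 5442 reads (SD, n = 4) lay over the highest of the 8 group means, 22148 (Val) (limma, adjusted p = 1.87e-18; 2.26 ± 0.12 without Phe C). A high level of the list was not particular to Phe. The mean log2 level of the 12 genes was 13.15, 13.36, 13.1 and 13.21 in Phe A to D. It ranged from 11.94 to 13.26 in the other 32 libraries, with Met C at 13.26.

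Leu3 is known to bind CCG, then 4 bases of any kind, then CGG, and the matches upstream of 4 of the 6 genes that hold them and rose are printed here, and those of ILV5 and BAT2 are not shown. Capitals mark its fixed letters on either strand of the R64 assembly, at chrVII:478825-478874 (minus strand) for LEU1, chrXI:216850-216879 (plus) for OAC1, chrXIII:483606-483635 (plus) for ILV2 and chrVIII:517375-517404 (plus) for BAT1.
LEU1: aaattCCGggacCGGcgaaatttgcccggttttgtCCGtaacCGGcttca
OAC1: ccgaaagatgCCGgaaaCGGtcttaggccg
ILV2: ccggagcctgCCGgtacCGGcttggcttca
BAT1: attgtgtttgCCGgtacCGGcctttaagct

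The motif stood in 7 of the 12 promoters, those of ILV2, ILV5, LEU1, LEU9, BAT1, BAT2 and OAC1, against 3.28% of all promoters. Of these 7 genes 6 rose, and LEU9 did not pass. Over all 182 tested genes with the motif 24 rose, 13.2% against 3.7% of all genes, 6 fell, and their median difference was 0.00.

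Phosphate genes were higher in 13 of 24 cases and lower in none, with and without Phe C, with a median of 0.58 (0.60 without Phe C). The 2 plasma membrane high-affinity transporters rose. PHO84, which couples phosphate to protons, had 1003, 1616, 1784 and 2451 reads in Ctrl and 13174, 14543, 13482 and 14104 in Phe, and PHO89, which couples it to sodium, had 38.6, 61.5, 134 and 114 and 669, 1166, 688 and 679. Phe B was the highest Phe library in both, by a wide margin in PHO89, no group overlapped, and the log2 differences were 3.08 ± 0.26 and 3.30 ± 0.36 (limma, adjusted p = 3.56e-11 and 1.52e-08), or 3.09 ± 0.28 and 3.36 ± 0.39 without Phe C. Within the letters A to D the PHO84 differences were 3.71, 3.17, 2.92 and 2.52.

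VTC3, a subunit of the vacuolar polyphosphate polymerase, had 619, 721, 608 and 727 reads in Ctrl and 2889, 3059.9, 2179.7 and 2920.3 in Phe, a rise of 2.04 ± 0.15 (limma, adjusted p = 8.07e-13). Its partners VTC4 and VTC1 rose by 1.20 ± 0.15 and 1.19 ± 0.11, and VTC2 by 0.38 ± 0.12 (adjusted p = 0.0445), a call that ended when any library but Phe C was left out. The secreted acid phosphatases rose too, PHO5 by 1.52 ± 0.20, PHO11 by 2.68 ± 0.20 and PHO12 by 3.07 ± 0.21 (adjusted p = 6.28e-07, 1.46e-12 and 4.37e-13), but PHO11 and PHO12 are near-identical copies whose reads cannot be told apart with certainty. The remaining rises were SPL2, PHO81, the inhibitor of the Pho80 and Pho85 kinase, at 0.82 ± 0.09, PHO8, the vacuolar alkaline phosphatase, at 0.76 ± 0.12, and PHO86, which helps Pho84 leave the endoplasmic reticulum, at 0.40 ± 0.10, which did not pass without Ctrl A. The regulators PHO4, PHO80 and PHO85 had 0.09, 0.26 and -0.27, and the low-affinity transporters PHO87, PHO90 and PHO91 had -0.18, 0.05 and 0.10; none of these 6 passed. Other amino acids moved these genes as well: group means of PHO84 ran from 550.0 (Cys) to 31116 (Gly), and Phe stood 1.40 ± 0.19 above the mean of the 8 (adjusted p = 3.02e-06).

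Pho4, the activator of this group, binds CACGTG, which the sulfur regulator Cbf1 binds too. The matches are shown upstream of 4 phosphate genes and of MET16, a sulfur gene described next, all on the minus strand of R64: PHO84 at chrXIII:26202-26241, PHO89 at chrII:798828-798857, SPL2 at chrVIII:375183-375252, VTC3 at chrXVI:517319-517368 and MET16 at chrXVI:877803-877832. Capitals mark the motif, which reads the same on both strands.
PHO84: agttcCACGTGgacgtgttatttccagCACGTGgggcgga
PHO89: atgacaatgcagCACGTGggagacaaatag
SPL2: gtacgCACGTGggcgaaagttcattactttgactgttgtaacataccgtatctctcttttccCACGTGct
VTC3: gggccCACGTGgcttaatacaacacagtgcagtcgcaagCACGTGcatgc
MET16: ctttttatttttatcatcatttCACGTGgc

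The SPL2 promoter held 4 such matches, 2 of them in the stretch shown. The motif stood in 16 of 24 phosphate promoters and 23 of 39 sulfur promoters, against 6.23% of all. Of 353 tested genes with it 32 rose, 9.07% against 3.7% of all genes, and 5 fell. Their median log2 difference was 0.00.

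Sulfur assimilation and methionine genes rose in part, 14 of 39 with none lower, and the median was 0.33. Without Phe C 14 rose and 1 fell, with a median of 0.30. SUL1, a sulfate permease, had 212, 203, 240.5 and 241 reads in Ctrl and 781, 903, 891 and 715 in Phe, and MET16, the reductase of activated sulfate, had 109.8, 92.3, 91.5 and 72.4 and 442, 417, 354 and 237. No Phe library fell to the Ctrl range in either, and the rises were 1.87 ± 0.16 and 1.95 ± 0.19 (limma, adjusted p = 1.22e-10 and 2.51e-09), or 1.83 ± 0.18 and 1.95 ± 0.21 without Phe C. MET28, a transcription factor of the sulfur genes, had 2.6, 0.0165, 1.75 and 12.2 reads in Ctrl and 138, 230.0, 242 and 96.7 in Phe. It passed at 5.61 ± 0.62 (adjusted p = 2.81e-08), but its Ctrl values were near 0 and were not whole reads in over 50% of libraries, so the size of the rise is uncertain.

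Some other genes of the route from sulfate to sulfide rose. MET1, of siroheme synthesis, rose by 1.58 ± 0.14, and the sulfite reductase subunits MET10 and MET5 by 1.45 ± 0.15 and 1.17 ± 0.15. MET3, also of this list, did not rise with or without Phe C. SUL2, the other sulfate permease, rose by 1.34 ± 0.14, and STR3, cystathionine beta-lyase, by 1.88 ± 0.33 (limma, adjusted p = 1.08e-08 and 0.00015). Among the methionine enzymes MET13, methylenetetrahydrofolate reductase, rose by 1.14 ± 0.27, and MET6, methionine synthase, by 0.83 ± 0.14 (adjusted p = 0.00526 and 4.92e-05). Relative to that 8-group mean 13 of the 39 were higher and 1 was lower, among them SUL1 at 1.58 ± 0.12 and MET16 at 1.22 ± 0.14 (adjusted p = 7.22e-12 and 1.57e-07). The highest of the 8 group means of SUL1 was 373 (Ile) reads, against 822 ± 90.3 (SD, n = 4) in Phe. The list as a whole overlapped more. Its mean log2 level was 9.87, 9.94, 10.04 and 9.76 in Phe A to D. In the other 32 libraries it ranged from 8.88 to 9.95.

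**Figure D4:**
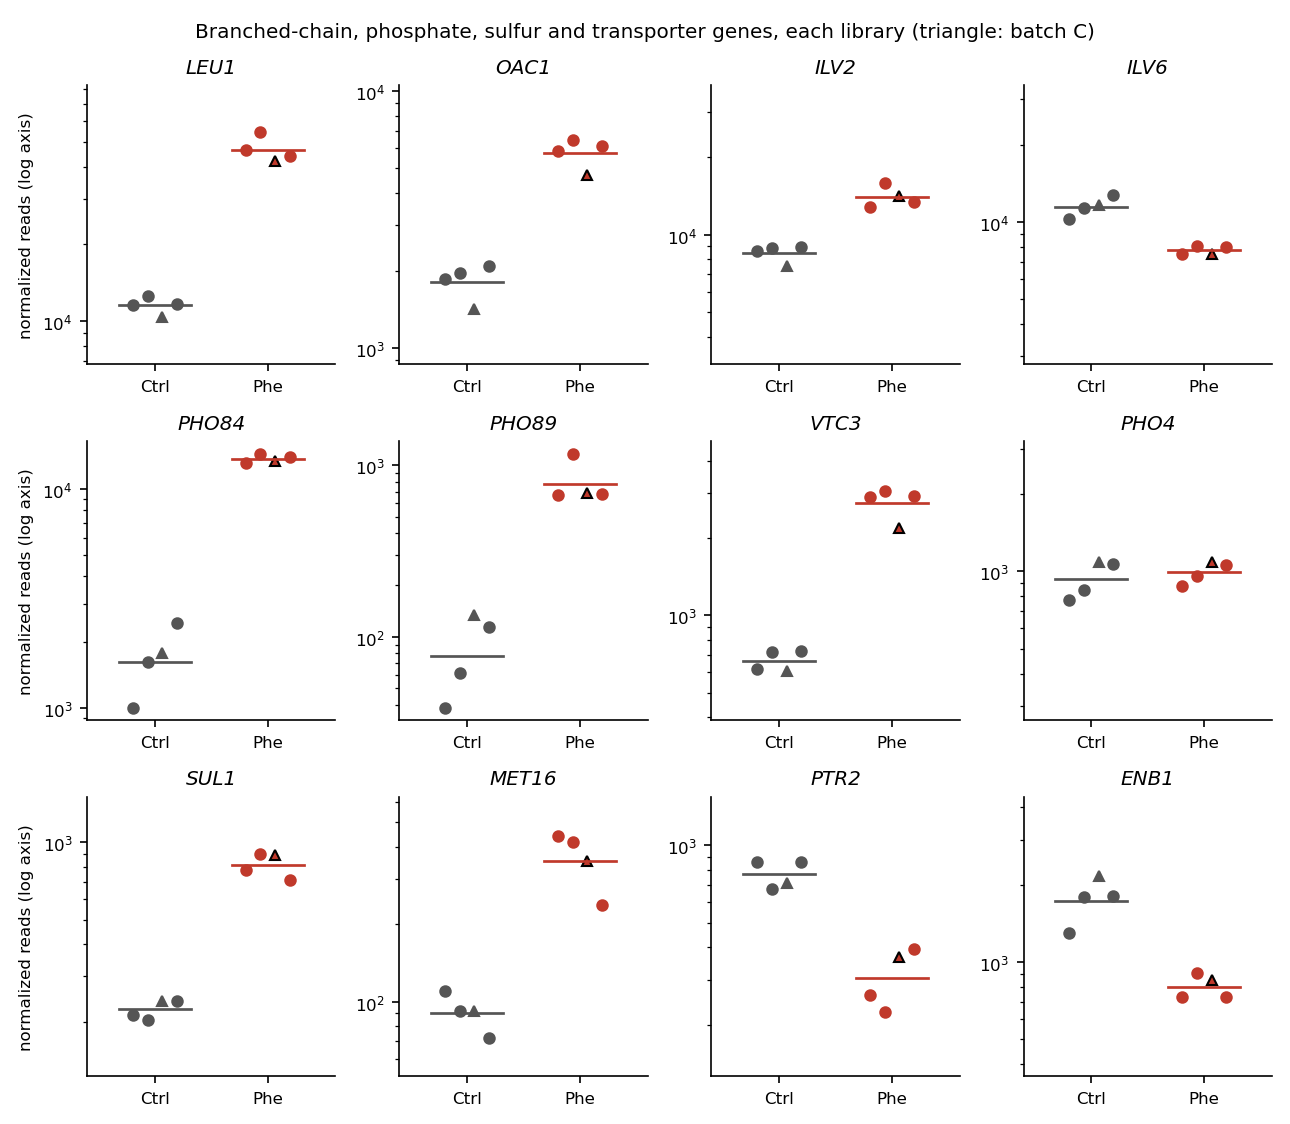
Normalized reads per library (vertical log axis) of 12 genes in Ctrl and Phe; triangles are batch C, Phe C has a black edge, and bars are geometric means. The groups do not overlap in 11 panels, with ILV6, PTR2 and ENB1 lower in Phe, and overlap in PHO4.

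Genes under nitrogen catabolite repression, which good nitrogen sources keep low, were higher in 8 of 28 cases and lower in 1, with and without Phe C, at a median of 0.25 in both. DAL1, allantoinase, had 22.3, 25.8, 37.5 and 32.9 reads in Ctrl and 78.2, 72.1, 89 and 51.5 in Phe, and MEP2, the high-affinity ammonium permease, had 726, 835, 1343 and 1036 and 1857, 1792, 1600 and 2416. In both, the lowest Phe library was above the highest Ctrl library, with differences of 1.27 ± 0.20 and 0.98 ± 0.20 (limma, adjusted p = 2.91e-05 and 0.00133). DAL4 and DUR3, permeases for allantoin and urea, rose by 0.75 ± 0.17 and 0.74 ± 0.17. GDH2, the glutamate dehydrogenase that releases ammonium, rose by 0.69 ± 0.08 (adjusted p = 1.07e-07). GAT1, an activator of these genes, rose by 1.03 ± 0.18 with values that may hold shared reads, and OPT2, an oligopeptide transporter, was lower, at -0.62 ± 0.14 (adjusted p = 0.00528).

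Lysine synthesis genes fell in 5 of 8 cases and rose in none, 4 of 8 without Phe C, and the median was -0.48 in both. LYS9, saccharopine dehydrogenase forming glutamate, had 25362, 25251, 31591 and 26490 reads in Ctrl and 17157, 17665, 18531 and 17938 in Phe, with no overlap and a difference of -0.60 ± 0.11 (limma, adjusted p = 0.000207), or -0.62 ± 0.12 without Phe C. LYS1, the last enzyme, fell, at -0.58 ± 0.14, as did LYS12, homoisocitrate dehydrogenase, at -0.52 ± 0.11 and LYS20, a homocitrate synthase, at -0.45 ± 0.11 (adjusted p = 0.00674, 0.00107 and 0.0092). LYS2, aminoadipate reductase, was called with all libraries but not without any single Phe library, Ctrl A, Ctrl B or Ctrl D (adjusted p = 0.0357, and 0.0512 without Phe C). ODC2, the mitochondrial carrier of the lysine precursors oxoadipate and oxoglutarate, had 2662, 2728, 2509 and 2818 reads in Ctrl and 1131, 1252, 878 and 1209 in Phe, a difference of -1.27 ± 0.13 (adjusted p = 5.16e-09).

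Smaller moves were seen in other amino acid and vitamin routes. In the kynurenine pathway from tryptophan to NAD, 4 of 7 genes rose with all libraries and 2 without Phe C; the block made these 5 and 4. BNA2, the dioxygenase that opens the tryptophan ring, had 53.4, 72.4, 90.3 and 73.5 reads in Ctrl and 181, 158, 181 and 159.6 in Phe, a rise of 1.24 ± 0.14 (limma, adjusted p = 3.57e-08). Arginine synthesis had 3 rises and 1 fall among 10 genes, but Ctrl C lay low for this list, with a mean log2 level of 10.89 against 11.75 to 11.80 in the other Ctrl libraries. Without Ctrl C the list median went from 0.27 to 0.07, and ARG3, ornithine carbamoyltransferase, and CPA1, a carbamoyl phosphate synthetase subunit, lost their calls (adjusted p = 0.0247 and 0.0291 with it, 0.223 and 0.23 without). Without Phe C ARG8, acetylornithine aminotransferase, was the 1 rise in the list, at 0.90 ± 0.18 (adjusted p = 0.00111). Histidine synthesis had 2 falls among 7, HIS1 at -0.50 ± 0.11 and HIS5 at -0.47 ± 0.11 (adjusted p = 0.00177 and 0.00564). Both calls ended in the fit that held only Phe and Ctrl (adjusted p = 0.12 and 0.104). Against the 8-group mean no gene of the kynurenine, arginine or histidine lists passed with all libraries. Without Phe C 1 kynurenine gene was lower there. In one-carbon metabolism 4 of 14 genes fell and 1 rose, 3 and 2 without Phe C, led downward by MTD1, a methylenetetrahydrofolate dehydrogenase, at -0.69 ± 0.13 (adjusted p = 0.000553).

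Of 18 genes of gluconeogenesis, the glyoxylate cycle and carnitine transfer 6 rose and 1 fell, 4 and 1 without Phe C. ADR1, the activator of genes for ethanol and fatty acid use, had 359, 257, 356 and 295 reads in Ctrl and 1089, 1009, 1200.4 and 1185 in Phe, a rise of 1.83 ± 0.19 (limma, adjusted p = 1.1e-08) with the groups well apart. MDH2, cytosolic malate dehydrogenase, rose by 0.99 ± 0.20, YAT2, a carnitine acetyltransferase, by 1.15 ± 0.21, and JEN1, the lactate permease, by 0.76 ± 0.13, while ICL1, isocitrate lyase, was lower, at -0.62 ± 0.12 (adjusted p = 0.000681, 0.00019, 8.47e-05 and 0.000291). CIT2, the peroxisomal citrate synthase that reports retrograde signalling, had 689, 763, 1927 and 1268 reads in Ctrl and 3659, 2834, 4280.5 and 3199 in Phe, a rise of 1.70 ± 0.32 (adjusted p = 0.000333). The glucose transporters HXT4 and HXT1 fell, HXT4 from 2249.9, 1439.6, 1289 and 1143 reads to 612, 363, 586 and 513, at -1.54 ± 0.38 and -0.70 ± 0.15 (adjusted p = 0.00842 and 0.00248). The HXT4 call ended without Ctrl A (adjusted p = 0.0506). None of 23 glycolysis and fermentation genes and none of 40 respiratory chain and ATP synthase genes passed with or without Phe C. Over all genes 5.6% passed with Phe C and 5.49% without it.

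Several other genes were among the largest changes. SRL4, a suppressor of the lethality of rad53 mutants, had 10.4, 4.96, 5.87 and 2.19 reads in Ctrl and 46.9, 53.7, 44 and 27.6 in Phe, and ATG41, an autophagy factor, had 95, 97.2, 84.5 and 145 and 585, 691, 615 and 478. Both rose with no overlap, by 2.79 ± 0.41 and 2.50 ± 0.34 (limma, adjusted p = 7.65e-06 and 1.65e-06). Compared with the other 8 amino acids SRL4 was 2.38 ± 0.31 higher, its highest group mean elsewhere being 17.7 (Gly) reads. The a-agglutinin subunits AGA1 and AGA2, which join mating cells, rose by 1.27 ± 0.27 and 0.70 ± 0.18 (adjusted p = 0.00171 and 0.0118). ASG7, a gene specific to mating type a, rose by 0.73 ± 0.16. The AGA2 call ended without Phe A, Ctrl B or Ctrl D. That of ASG7 ended in the fit that held only Phe and Ctrl (limma, adjusted p = 0.0506). IMD2, an inosine monophosphate dehydrogenase, and QDR2, a multidrug transporter, rose by 1.07 ± 0.19 and 0.77 ± 0.12 (adjusted p = 0.000114 and 1.32e-05).

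ENB1, the enterobactin transporter of iron uptake, fell from 1299, 1797, 2162 and 1801 reads in Ctrl to 734, 908, 855 and 729 in Phe, a difference of -1.11 ± 0.14 (limma, adjusted p = 5.68e-07), and lay -1.03 from the 8-group mean. Among 31 iron genes it was the 1 fall and 2 rose, shares near the 1.9% and 3.7% of all genes. Against the 8-group mean 10 of the 31 were lower and 1 was higher, where 4.67% and 3.98% of all genes were, and without Phe C 9 were lower and 1 higher. The daughter-cell glucanase DSE4 was lower, at -1.01 ± 0.18 (adjusted p = 0.000208). AQY2 and YLL053C, adjacent parts of an aquaporin gene, had -1.22 ± 0.30 and -1.18 ± 0.25 (adjusted p = 0.00842 and 0.00177), and AQY2 missed the threshold without Phe C (adjusted p = 0.0695) or without Ctrl C (adjusted p = 0.0756). YLR297W, a gene of unknown function, had 87.6, 127, 55.1 and 177 reads in Ctrl and 32.6, 26.1, 26.5 and 56.5 in Phe, so that Phe D lay above Ctrl C; its difference was -1.57 ± 0.32 (adjusted p = 0.000972). YIL082W, a retrotransposon gene, had -1.46 ± 0.39 (adjusted p = 0.0169) on values that may hold shared reads, and its call ended without Phe B, Phe D, Ctrl A or Ctrl D.

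Stress genes depended on Phe C. With all libraries 1 of 80 general stress genes rose, 1 fell and the median was 0.06. Over all genes 3.7% rose and 1.9% fell. Without Phe C 1 of the 80 rose, 4 fell and the median was -0.25, and over all genes 3.26% rose and 2.23% fell. Within the letters A to D the list medians were -0.17, -0.39, 1.24 and -0.25. HSP12, a small membrane-associated heat shock protein, had 251, 163, 118 and 250.1 reads in Ctrl and 1014, 448, 7353 and 1106 in Phe. All Phe libraries lay above all Ctrl libraries, and the rise was 2.89 ± 0.62 with Phe C and 2.09 ± 0.57 without it (limma, adjusted p = 0.00194 and 0.0214). The genes that fell without Phe C were CMK2, a calmodulin-dependent kinase called with all libraries as well but not without Ctrl C, at -1.10 ± 0.27, PRB1, vacuolar proteinase B, at -0.89 ± 0.22, GRE3, an aldose reductase, at -0.90 ± 0.22, and GPD1, glycerol-3-phosphate dehydrogenase, at -1.73 ± 0.37. GPD1 had 1670.2, 1548, 1500.3 and 1730.2 reads in Ctrl and 674, 382, 2500.1 and 443 in Phe, and passed without Phe C but not with it (adjusted p = 0.00235 and 0.124); its values may hold shared reads.

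None of 33 heat shock chaperone genes passed with all libraries, and 4 fell without Phe C, where 2.23% of all genes fell. SSA1, a cytosolic Hsp70, had 3467, 3458, 2878 and 4307 reads in Ctrl and 1753, 957, 9051 and 2028 in Phe. Phe A, B and D lay under every Ctrl library and Phe C above, and the difference was -0.57 ± 0.40 with Phe C and -1.21 ± 0.32 without it (limma, adjusted p = 0.586 and 0.0174). SSA2, a close copy of SSA1, HSC82, the constitutive Hsp90, and CPR1, cyclophilin, were lower, at -0.70 ± 0.17, -0.45 ± 0.14 and -0.50 ± 0.12 without Phe C. MIT1, a regulator of filamentous growth, fell with and without Phe C, at -1.03 ± 0.31 and -1.28 ± 0.32 (adjusted p = 0.0399 and 0.0105), but its call ended under each of 6 other single libraries left out.

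Against the 8-group mean more calls depended on Phe C. There 36 of 80 stress genes and 20 of 33 chaperone genes were lower in Phe without Phe C, where 9.7% of all genes were lower. With Phe C 4 and 11 were lower, where 4.67% of all genes were. Of 117 ribosome biogenesis genes 58 were higher without Phe C, where 7.31% of all genes were, and 2 with it, where 3.98% were. Against Ctrl none of the 117 passed either way, with medians of 0.00 and 0.18. All calls against the 8 numbered 528 with Phe C and 1038, or 17% of genes, without it. Scaled to equal totals, the 243 higher and 285 lower genes with Phe C became 263 and 190. Genes that passed both this comparison and Phe against Ctrl in the same direction were 111 higher, 1.82%, and 51 lower, 0.836%, 2.65% together, or 108 (1.77%) and 92 (1.51%), 3.28% together, without Phe C.

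**Figure D5:**
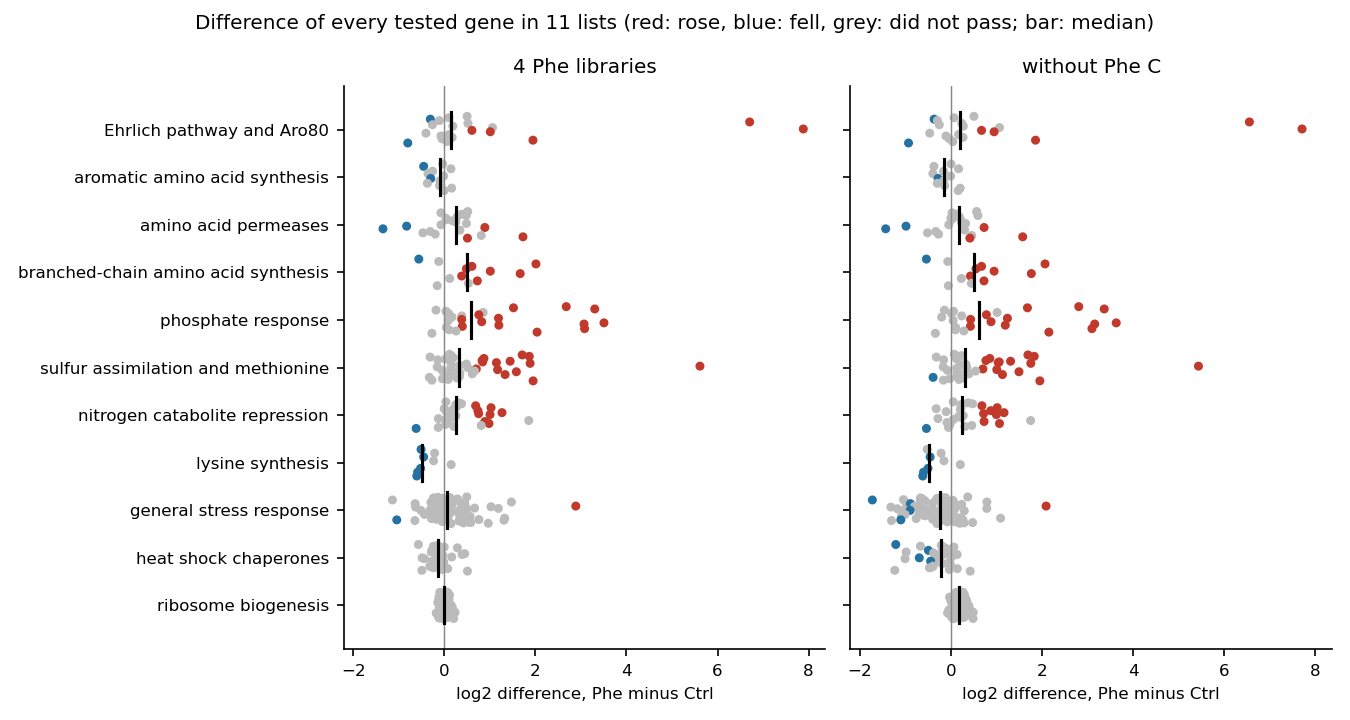
Log2 difference between Phe and Ctrl (horizontal axis) of every tested gene in 11 lists (rows), with all 4 Phe libraries (left) and without Phe C (right); red points rose, blue points fell, grey points did not pass, and the black bar is the list median. The amino acid, phosphate and sulfur lists look alike in both panels, and the stress and chaperone lists move left without Phe C, from medians of 0.06 and -0.14 to -0.25 and -0.22.

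Tryptophan, the other aromatic amino acid of the series, also came with Aro80 genes far above the Ctrl range; the doses of both are not in the labels. ARO9 had 18854, 18233, 16241 and 19634 reads in Trp A to D and ARO10 20070, 19266, 16464 and 21002. Phe minus Trp was -0.76 ± 0.31 and -0.52 ± 0.21 on the log2 scale and did not pass with Phe C (limma, adjusted p = 0.0983 and 0.0983), but passed without it, at -0.94 ± 0.33 and -0.68 ± 0.22 (adjusted p = 0.0353 and 0.0249). Of the 12 branched-chain genes 10 were higher in Phe than in Trp and none lower, with and without Phe C, LEU1 by 2.13 ± 0.14 (limma, adjusted p = 1.1e-13). Of the 24 phosphate genes 6 were lower in Phe than in Trp, 10 with the replicate block, 1 was higher, and the median was -0.25; without Phe C 6 were lower and 2 higher. PHO12 and VTC4 were lower, at -1.06 ± 0.21 and -0.50 ± 0.15 (adjusted p = 0.0011 and 0.0245), and PHO89 was the higher gene, at 2.27 ± 0.36 (adjusted p = 3.64e-05). Over all genes 11.9% differed, 5.87% higher and 6.03% lower in Phe than in Trp, or 22.8%, 11% and 11.8% without Phe C. Scaling to equal totals turned the 358 higher and 368 lower genes with Phe C into 440 and 226.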

How the data were processed

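The values were normalized read counts per gene, a signal that the authors deposited in 1 table of 40 libraries. Per the labels' protocols, poly(A) libraries that keep strand were made from 300 ng of RNA. STAR 2.7.8a and Partek are named in the submitters' processing notes; no source used here gives the genome build, annotation, strand setting or normalization method. Between 88.79% and 90.96% of values in a library were whole multiples of 1 read within 0.1 read, which gave the estimated reads; the rest may hold reads split between genes, so no count test was run. Some genes are not reported here.

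Genes with a mean of at least 5 normalized reads were kept, and log2(value + 1) was fitted with limma 3.58.1 in R 4.3.3 over all 40 libraries, which share 1 estimate of the spread. P-values were two-sided with Benjamini-Hochberg adjustment over 6103 genes, and the threshold was an adjusted p of 0.05. They measure the spread between these libraries only, and a fold change on this scale understates that of low genes. Phe was compared with Ctrl, with Trp and with the 8 non-Phe amino acid groups averaged, each also without Phe C.

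Named genes were the 12 largest rises and 8 largest falls among calls with a mean of at least 20 and the same sign in all letters, the 8 largest each way without Phe C, the Ehrlich, aromatic and permease lists, up to 4 called genes of each other list, and up to 6 each way of the genes set apart from the other amino acids; the comparison, the lists and the genes were chosen with earlier results of these data known, and further genes were named after their values were seen. The labels call the letters A to D batches, so they pair libraries; deviations from the group means of Phe and Ctrl correlated across genes at 0.28, 0.0975, 0.0953 and 0.319 within the letters A to D, against a mean of -0.0653 between different letters. Alternatives were other scalings, filters and pseudocounts, the replicate block, a fit holding no other groups, and each library left out. Tested on simulated data for Phe against Ctrl with 6103 genes, the fit found 50 of 67 genes changed by 0.58 on the log2 scale, 61 of 67 changed by 1 and 64 of 66 changed by 2, with 9 false calls. All simulated libraries were drawn independently from the Ctrl means with a capped Ctrl spread, and changed genes had a Ctrl mean of at least 20. No simulated library stood apart like Phe C and the letters were not correlated, so these counts do not carry over to the real comparison. Promoters came from the RefSeq R64 assembly.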

Additional observations from a re-analysis of the deposited data

Results flagged for a closer look

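In 22 of 280 groups of 4 libraries checked, 7.86%, the highest or lowest library lay apart from the others by a gap that took up most of the group's range. Chance flags about 1 in 20 groups picked without regard to their values. Some genes checked here were named after their values were seen, and Phe C was known to stand apart. The share flagged therefore cannot be set against that rate. Phe C held 12 of the flags. In Ctrl D, the normalized reads that stood apart were 16622 for BAT1 and 31.8 for PHO11. In Ctrl C, the normalized reads that stood apart were 907 for ARG3, 1510.4 for CMK2, 2745 for CPA1, 15108 for HXT1, 2456 for MDH2 and 145 for YHR138C. In Phe C, the normalized reads that stood apart were 8715 for CPA1, 426 for DDR2, 2500.1 for GPD1, 7353 for HSP12, 3482 for HXK1, 1909 for SAM3, 9051 for SSA1, 877 for SUL2 and 2048 for TSL1. In Ctrl B, the normalized reads that stood apart were 727 for LEU3. In Phe B, the normalized reads that stood apart were 1166 for PHO89. In Phe C, the mean log2 levels that stood apart were 9.39 for the list of trehalose and glycogen, 10.44 for the list of ribosome biogenesis and 11.24 for the list of Ehrlich pathway and Aro80.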

How the results depend on the processing

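The count for Phe against Ctrl, 342, was 195 when the fit held the compared groups only, and lay between 265 and 335 with any 1 library left out; without Phe C, leaving out another library gave 172 to 332, the lowest without Phe B. Against the 8 other amino acids averaged, the count of 528 ranged from 221 (without Phe D) to 1038 (without Phe C) with 1 library left out, and without Phe C from 338 (also without Phe B) to 638. Against Trp the count of 726 was 269 in the fit to the compared groups, ranged from 352 (without Phe B) to 1389 (without Phe C) with 1 library left out, and without Phe C from 700 to 1311. The 162 genes set apart ranged from 102 (without Phe B) to 200, and without Phe C from 82 to 171. With the letter as a replicate block the counts were 435, 714, 1023 and 206, and with the block and Phe C left out they were 491, 1261 and 1709 for Ctrl, the other 8 and Trp. Among the named genes the block ended no call against Ctrl with all libraries and added those of ARO2, BAP2, LEU4, PRB1, ALP1, PUT4, HSP150 and CLN3. The causes were not tested. With 1 library left out, the medians of 14 of 45 lists turned sign. Among them, that of the general stress list, 0.06, ranged from -0.2484 to 0.2575, that of trehalose and glycogen, -0.08, from -0.3689 to 0.0667, that of vacuolar amino acid transport, -0.04, from -0.0413 to 0.0137, and that of sporulation, 0.19, from -0.0082 to 0.2697. Of 212 named genes 127 were called against Ctrl, 83 of them under every alternative run, 44 lost the call under at least 1, 35 of them in the fit to the compared groups, and 0 reversed. The 4 libraries a group, 1 library that stands apart, reads that may be shared between genes and the unknown normalization limit these values.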
